A study of Mus musculus with 8 samples.

Results

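The VEGF and angiopoietin genes described here are 10 of the 17921 genes counted in single cells of mouse lung grafts, taken as a listed set of ligands and receptors: Vegfa, Vegfc, Pgf, Kdr, Flt1, Nrp1, Nrp2, Tek, Angpt1 and Angpt2. Left lungs of male mice were transplanted and harvested after 1 month with no immunosuppression. In the B6→B6 group (n = 5 mice) donor and recipient were C57BL/6 (B6), and in the HLA→B6 group (n = 3 mice) the donor was B6 with the human HLA transgene Tg(HLA-A2.1)1Enge and the recipient B6, a model of bronchiolitis obliterans syndrome (BOS). The deposited tables do not mark whether a cell came from the donor or the recipient. Each graft gave 1 library of droplet RNA-Seq of transcript 3′ ends, and the 20778 cells keep the cell type and the structural cluster number deposited by the authors.

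VEGF-A, VEGF-C and placental growth factor (Pgf) are secreted ligands of receptor tyrosine kinases on endothelial cells. Kdr (VEGFR2) carries most of the growth signal, Flt1 (VEGFR1) binds VEGF-A tightly and can act as a decoy, and the neuropilins Nrp1 and Nrp2 are co-receptors that also bind class 3 semaphorins. Angiopoietin 1 activates the endothelial receptor Tie2, encoded by Tek, and stabilises vessels, whereas angiopoietin 2 can block that signal. In the lung the alveolar capillary bed holds general capillary cells and the Car4-positive cells known as aerocytes, which depend on VEGF-A.

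The depth was uneven between grafts. Libraries held 868 to 6544 cells and 1669076 to 12445769 unique molecular identifiers (UMIs, 1 per captured transcript), with a median of 1356 to 1948 UMIs per cell. In 5 of 28 pairs of libraries cell barcodes were shared at over 5 times the median rate, and these pairs linked B6→B6 mice 1, 2 and 3 with HLA→B6 mouse 2. Differences within the linked and the unlinked mice are therefore given beside the pooled ones. Levels are counts per 1000000 UMIs of the same cells (CPM), and p values measure the spread between mice.

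The members were unequally abundant. Flt1 had 3588 UMIs and was found in 11.6% of all cells, Nrp1 had 3481 UMIs, Tek 1890, Kdr 1723, Nrp2 931, Vegfa 701 and Vegfc 643. Angpt1 (128 UMIs), Pgf (108) and Angpt2 (103) were found in 0.539%, 0.318% and 0.419% of cells. Values of these 3 genes rest on few molecules, and their intervals and floors cover counting error only.

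The loci are given on GRCm38. Kdr lies at chr5:75932827-75978458 and Flt1 at chr5:147561604-147726011, both on the minus strand, and Nrp1 at chr8:128358604-128503363 on the plus strand. Vegfa lies at chr17:46016993-46032369, Pgf at chr12:85166635-85177790, Vegfc at chr8:54077606-54187096, Tek at chr4:94739289-94874976 and Nrp2 at chr1:62703285-62818695. Angpt1 (chr15:42424723-42676977) overlaps the antisense gene Gm17473 and Angpt2 (chr8:18690263-18741562) overlaps Mcph1 on the other strand, which had 25 and 169 UMIs of their own. Whether counting used strand was not given in the sources used here, so the values of Angpt1 and Angpt2 are uncertain in that respect.

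The RefSeq table of promoters on GRCm38.p6 held 8 of the 10 members with 10 windows, and Angpt1 and Angpt2 had none there. The 250 bases before the start are shown for the 3 receptors on which the results below turn, Kdr and Nrp1, which shared their highest cluster, and Flt1, which was highest elsewhere. They are written 5′ to 3′ on the strand of the gene, and capitals mark matches, on either strand, to GGGCGG (a GC box), TGACGTCA (a cyclic AMP response element, CRE) or TATAAA.
Kdr, chr5:75978456-75978705, minus strand: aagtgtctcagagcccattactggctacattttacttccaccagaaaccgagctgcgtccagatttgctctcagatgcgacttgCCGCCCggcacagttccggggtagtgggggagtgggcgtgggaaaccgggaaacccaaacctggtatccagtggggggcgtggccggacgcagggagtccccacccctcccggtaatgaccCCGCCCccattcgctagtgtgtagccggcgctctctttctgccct
Nrp1, chr8:128358823-128359072, plus strand: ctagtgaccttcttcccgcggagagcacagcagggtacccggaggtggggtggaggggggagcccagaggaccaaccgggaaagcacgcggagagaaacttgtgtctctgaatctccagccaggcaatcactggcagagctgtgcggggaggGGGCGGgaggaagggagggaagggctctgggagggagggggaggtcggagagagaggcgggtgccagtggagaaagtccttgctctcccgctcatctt
Flt1, chr5:147726012-147726261, minus strand: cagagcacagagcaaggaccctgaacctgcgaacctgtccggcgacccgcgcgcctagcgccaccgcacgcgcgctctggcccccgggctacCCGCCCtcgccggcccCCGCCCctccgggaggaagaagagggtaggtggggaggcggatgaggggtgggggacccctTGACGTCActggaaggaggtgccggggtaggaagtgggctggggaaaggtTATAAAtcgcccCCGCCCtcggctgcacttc
The Kdr window held 2 GC boxes, the Nrp1 window 1 and the Flt1 window 3, with a CRE that began 81 bases and a TATAAA that began 31 bases before the start in Flt1. Of all 32851 promoters of the same length, 32.7% held a GC box, 1.55% the CRE and 12.4% a TATAAA. Neither ACGTG, the core that hypoxia inducible factors bind (in 16.6% of promoters), nor CGGAAG, an ETS core (13.6%), was matched in these 3 windows. The Nrp1 window follows the RefSeq start, which lies inside the gene as annotated above. A match is a description of these letters and not of a bound site.

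The populations in which the members were measured were checked against marker genes first, with pooled CPM over all mice. The endothelial genes Pecam1 and Cldn5 were at 1494 and 5059 CPM in structural cluster 0, 1266 and 3580 in cluster 1, 1810 and 6959 in cluster 2 and 1235 and 2072 in cluster 5. Cluster 2 also held the aerocyte genes Car4 (4975 CPM) and Ednrb (778 CPM), cluster 5 the venous genes Vwf (2055 CPM) and Vcam1 (860 CPM), and Gpihbp1, a general capillary gene, was at 2357 CPM in cluster 0. The deposited table names clusters 1, 2 and 7 epithelial, against these values, those of cluster 7 below and Epcam at 0 CPM in cluster 2, so structural clusters are called by number here. Cluster 3 held the fibroblast gene Col1a1 (1078 CPM) and cluster 7 the platelet gene Pf4 (12409 CPM). Both also held the endothelial gene Cldn5, at 1263 and 1816 CPM, and cluster 7 held Scgb1a1 at 3886 CPM. Cluster 8 held the epithelial genes Epcam (439 CPM) and Scgb1a1 (133709 CPM), and cluster 9 the lymphatic genes Prox1 (444 CPM) and Flt4 (444 CPM).

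Which cells carried each member was asked next, as a mean over the mice with at least 10 cells of a population, ranked over populations with at least 2 such mice. Clustering used these counts too, so levels of clusters are described without a test. Levels are said to differ beyond the spread where the mean difference over mice with both populations exceeds its SD. Only neighbours in rank were compared in this way. Kdr, Nrp1, Flt1 and Tek were highest in endothelial clusters, but not in the same ones. Nrp2 had close means in alveolar macrophages and cluster 5. Kdr and Nrp1 peaked in cluster 2, while Flt1 and Tek were highest in clusters 0, 1 and 5.

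Among the ligands, Vegfa was highest at 381 CPM in the epithelial cluster 8, which only B6→B6 mouse 4 (743 CPM) and HLA→B6 mouse 1 (20.2 CPM) held in sufficient number. Cluster 0 was at 143 ± 54.4 CPM (SD, n = 8 mice) and cluster 1 at 106 ± 35.8 CPM, levels that did not differ beyond the spread between mice. Cluster 2 was at 10.4 ± 14.5 CPM for Vegfa. As cells of cluster 8 were few, clusters 0 and 1 gave 47.5% and 23.3% of all Vegfa UMIs, so most of the ligand transcripts recovered came from endothelial clusters.

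Vegfc, a ligand best known for lymphatic growth, was at 283 ± 66.4 CPM (SD, n = 7 mice) in cluster 5, ahead of cluster 0 (99.4 ± 54.5 CPM, n = 8) in 7 of 7 mice and of cluster 1 (34.0 ± 27.1 CPM). Cluster 5 held 0.989% of all UMIs and 18.8% of those of Vegfc. Outside structural cells, NK cells were at 23.1 ± 11.6 CPM and monocytes at 12.8 ± 7.47 CPM (n = 8 mice). A Vegfc UMI was found in 3.07% of NK cells and 0.32% of T cells, at median depths of 1484 and 1648 UMIs, and in 0.96% and 0.11% after thinning each cell to 500 UMIs. Vegfc in NK cells was thus above its level in another lymphocyte of like depth.

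Pgf was at 93.3 ± 102 CPM (SD, n = 6 mice) in cluster 3, with 273 and 159 CPM in B6→B6 mice 1 and 3 and 27.4 to 37.7 CPM in the other 4 mice. Of the 18 Pgf UMIs of B6→B6 mouse 3 there, 14 were in 1 cell, without which this mouse was at 41.0 CPM and the mean at 73.6 ± 98.0 CPM. Clusters 3 and 1 gave 38.9% and 30.6% of its UMIs. Its level in cluster 1 came from HLA→B6 mice alone and is taken up below.

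Of the receptors, Kdr was concentrated in cluster 2. Cluster 2 was at 856 ± 274 CPM (SD, n = 8 mice; 432 to 1273 CPM) and cluster 5, the next of the ranked populations, at 176 ± 114 CPM (n = 7), with cluster 2 higher in 7 of 7 mice. Kdr was at 507 CPM in cluster 9 of the only mouse that held 10 or more of its cells, which left that cluster unranked. Cluster 1 (146 CPM) did not differ from cluster 5 beyond the spread, nor did cluster 0 (131 CPM) from cluster 1. Cluster 2 held 2.43% of all UMIs and 58.3% of those of Kdr, and structural cells together gave 93.6%. The share of cells with a Kdr UMI was 74.7% in cluster 2, 9.09% in cluster 0 and 0.26% in B cells, or 38.7%, 4.47% and 0.12% at 500 UMIs per cell. The median depths of these 3 populations were 1869, 1068.5 and 1597.5 UMIs.

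Flt1, unlike Kdr, had a lower mean in cluster 2 than in clusters 0, 1 and 5. It was at 602 ± 152 CPM in cluster 0, 573 ± 155 CPM in cluster 5 and 454 ± 139 CPM in cluster 1. Neighbours in this order did not differ beyond the spread between mice. Cluster 2 was at 158 ± 47.4 CPM for Flt1. In alveolar macrophages Flt1 was at 52.1 CPM. At 500 UMIs per cell 2.53% of alveolar macrophages had a Flt1 UMI, against 0.47% of B cells and 0.36% of T cells.

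Nrp1 was at 875 ± 255 CPM in cluster 2 (535 to 1225 CPM), above cluster 0 (348 ± 115 CPM) in 8 of 8 mice, and at 317 ± 171 CPM in cluster 1. Cluster 2 held 29.0% of Nrp1 UMIs, cluster 0 22.0%, alveolar macrophages 11.7% and T cells 11.2%. At 500 UMIs per cell it was found in 37.1% of cluster 2 cells, 2.38% of T cells, 1.87% of alveolar macrophages and 0.09% of B cells. Type 2 pneumocytes, pooled over mice (32 cells), were at 144 CPM for Nrp1.

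Nrp2 differed from Nrp1 in place. Alveolar macrophages held 76.9% of its UMIs, at 70.4 ± 17.3 CPM (SD, n = 8 mice), and cluster 5 was at 69.6 ± 51.2 CPM (n = 7). These levels did not differ beyond the spread. A Nrp2 UMI was found in 20.2% of alveolar macrophages (median 2791.5 UMIs per cell) and 0.28% of T cells, or 3.53% and 0.08% at 500 UMIs.

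Tek, the angiopoietin receptor, followed Flt1 rather than Kdr. It was at 468 ± 301 CPM in cluster 0, 399.9 ± 104 CPM in cluster 1 and 289 ± 47.4 CPM in cluster 5 (n = 8, 8 and 7 mice), and at 35.1 ± 21.5 CPM in cluster 2. Clusters 0 and 1 did not differ beyond the spread, and cluster 1 was above cluster 5 in 7 of 7 mice. Clusters 0 and 1 gave 49.6% and 25.7% of Tek UMIs.

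The angiopoietins were rare. Angpt1 was at 163 ± 132 CPM (SD, n = 5 mice) in cluster 7, where all mice together gave 10 UMIs in 92 cells. Cluster 3 was at 74.4 ± 48.0 CPM (n = 6) for Angpt1, without a difference beyond the spread. NK cells, at 10.5 ± 7.05 CPM (n = 8), gave 14.1% of Angpt1 UMIs. Angpt2 was at 40.5 ± 67.8 CPM in cluster 1, 31.3 ± 39.9 CPM in cluster 3 and 23.3 ± 23.7 CPM in cluster 0. Neighbours in this order did not differ beyond the spread. The cluster 1 mean was carried by B6→B6 mouse 2 (202 CPM from 3 UMIs). Without that mouse it was 17.5 ± 20.6 CPM (n = 7) and cluster 3 had the highest mean, and pooled over mice cluster 1 was at 10.1 CPM for Angpt2. The 32 cells of the lymphatic cluster 9 gave 22 Angpt2 UMIs, 21.4% of the total. Pooled, cluster 9 stood at 362 CPM for Angpt2, 362 CPM for Kdr and 247 CPM for Nrp2, with no UMI of Flt1 or Nrp1.

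**Figure D1:**
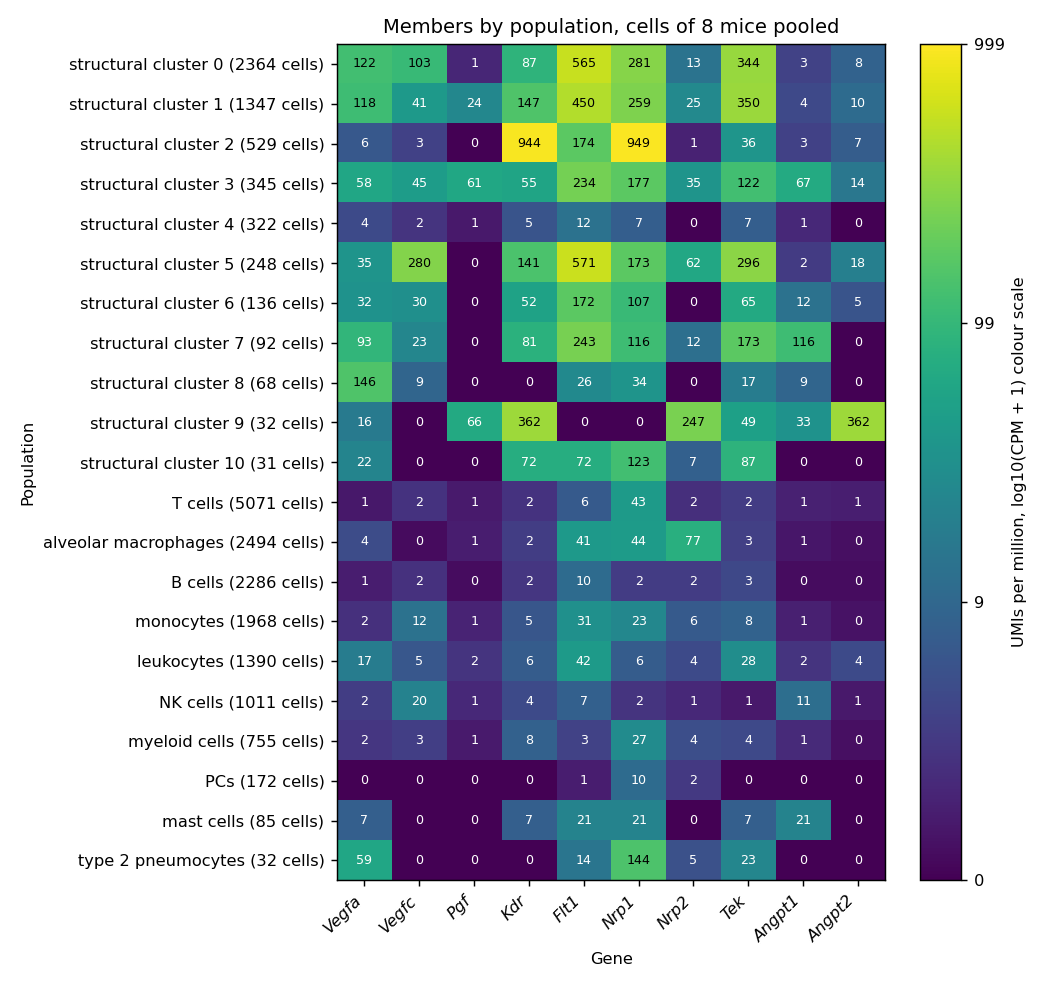
Levels of the 10 members (columns) in the populations (rows) as CPM of the cells of all 8 mice pooled, printed in each field and coloured on a log scale. Kdr and Nrp1 peak in structural cluster 2 (944 and 949 CPM), Tek is at 344 CPM in cluster 0 and Flt1 at 565 CPM in cluster 0 and 571 CPM in cluster 5.

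**Figure D2:**
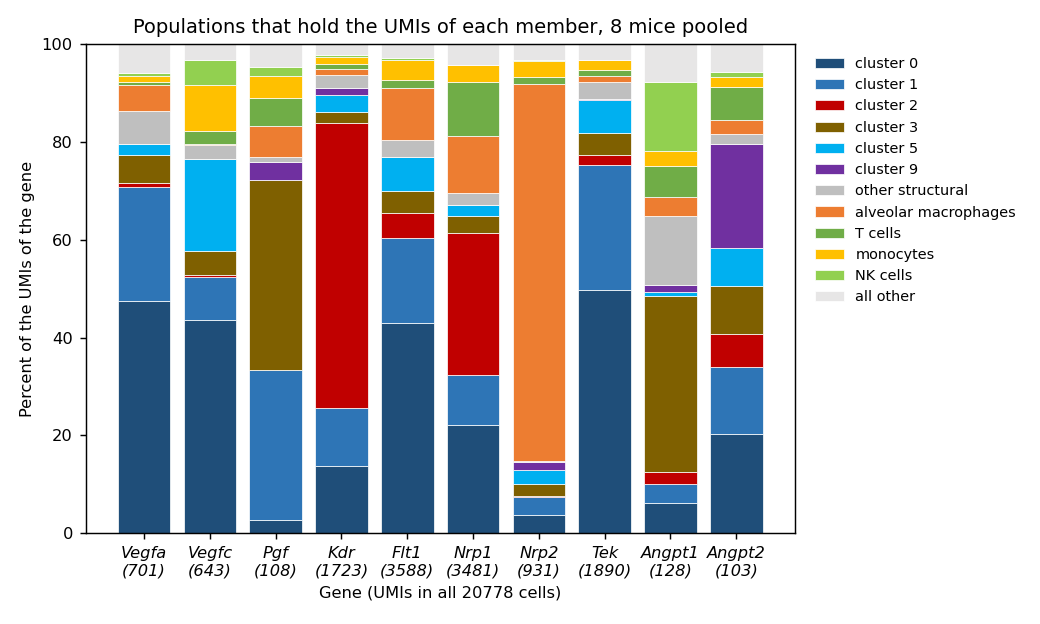
Share of all UMIs of each member (in percent) that came from each population, over all 8 mice. Cluster 2 supplied 58.3% of Kdr UMIs, alveolar macrophages 76.9% of Nrp2 UMIs, and Nrp1 was divided among clusters 2 and 0, alveolar macrophages and T cells.

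Genes with the most similar pattern were found by Pearson correlation of log2(CPM + 10) over the 21 populations, which share libraries and depth, so the values are a description. Kdr was closest to Piezo2 (0.97), Tspan18 and Ackr2, and Tek to Ptprb (0.97), which encodes a phosphatase that acts on Tie2, Edn1 and Acer2. For Flt1 these were Klhl5 (0.96), Tmem44 and Tspan7, and for Nrp1 Pak4 (0.91), Spryd7 and Cx3cl1. Vegfa was nearest to Tspan2 (0.90), Vegfc to Arhgap20 (0.93), Pgf to Igfbp3 (0.97) and Nrp2 to Exoc3l4 (0.90).

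The grafts of both groups were then compared with sums of counts per mouse and edgeR's quasi-likelihood F test, in which a p adjusted over all genes tested (Benjamini-Hochberg) under 0.05 was called. Log2 fold changes are HLA→B6 over B6→B6, with standard error (SE), after TMM scaling. Over all cells of a graft no member was called among 10 tested, and 0% of 11584 genes were called (0 members and 815 genes had an unadjusted p under 0.05 by edgeR, and DESeq2 called 0 members and 119 genes). The median log2 fold change of the members was 0.24, beside -0.01 over all genes. In whole graft sums the values were 0.61 for Vegfa, 0.35 for Vegfc, 0.30 for Pgf, 0.18 for Flt1, 0.49 for Nrp2, 0.57 for Tek and 0.14 for Angpt1, and -0.99 for Kdr, -0.36 for Nrp1 and -1.68 for Angpt2. A whole graft sum cannot tell fewer cells of a type from less RNA per cell, so the populations follow.

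In alveolar macrophages, 2 of the 3 members that passed the filter on low counts were called, Nrp1 as higher and Flt1 as lower in HLA→B6 grafts. Among all 5798 genes tested there, 12.3% were called. The median log2 fold change of the 3 members was 0.47, beside -0.03 over all genes.

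Nrp1 in alveolar macrophages was at 33.0, 27.1, 34.6, 26.5 and 22.6 CPM in B6→B6 mice 1 to 5 and 47.6, 59.9 and 33.6 CPM in HLA→B6 mice 1 to 3. HLA→B6 mice 1 and 2 were above every B6→B6 mouse, and HLA→B6 mouse 3 was below B6→B6 mouse 3. A log2 fold change of 1.05 (SE 0.24, adjusted p = 0.0219 by edgeR) was obtained, and an exact permutation test of CPM over mice gave p = 0.0714. Without B6→B6 mouse 4 or HLA→B6 mouse 2 Nrp1 was not called (log2 fold changes of 1.00 and 0.76, adjusted p = 0.069 and 0.166 by edgeR). Within the linked and unlinked mice the differences on log2(CPM + 10) were 0.75 and 0.54.

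Flt1 in the same cells was at 85.7, 41.8, 61.0, 66.1 and 67.9 CPM in B6→B6 and 32.0, 20.1 and 42.0 CPM in HLA→B6 mice. The groups overlapped by 1 pair of mice, B6→B6 mouse 2 and HLA→B6 mouse 3. Flt1 had a log2 fold change of -0.93 (SE 0.26, adjusted p = 0.0423 by edgeR; exact permutation p = 0.0714), and the log2(CPM + 10) difference was -1.23 among linked and -0.72 among unlinked mice. The call was lost without B6→B6 mouse 1, 3, 4 or 5 or HLA→B6 mouse 1 or 2 (adjusted p = 0.0821, 0.0601, 0.106, 0.0702, 0.0867 and 0.223 by edgeR), at log2 fold changes of -0.66 to -0.97. Nrp2 was at 34.6 to 85.5 CPM and 66.1 to 93.1 CPM, with a log2 fold change of 0.47 (SE 0.27, adjusted p = 0.286 by edgeR).

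The calls in alveolar macrophages moved with other genes of these cells. The macrophage markers Marco and Siglecf fell (log2 fold changes of -3.68 and -1.95, adjusted p = 0.00424 and 0.0214 by edgeR) while Lyz2, Ly6c2 and Csf3r, genes of monocytes or neutrophils, rose (adjusted p = 0.00693, 0.0296 and 0.0372 by edgeR). The summed level of the macrophage list was 9748 to 12395 CPM in B6→B6 and 547 to 4703 CPM in HLA→B6 mice, and that of the monocyte and neutrophil list 11727 to 23747 and 39886 to 43245 CPM. In cells without a UMI of Ly6c2, Ccr2, Csf3r or S100a8, where 10.6% of 4722 genes were called, Nrp1 changed by 0.82 (adjusted p = 0.104 by edgeR) and Flt1 by -0.77 (adjusted p = 0.146), so neither was called. The part of these cells in the result was not tested.

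In cells with such a UMI, Nrp1 was at 7.76 to 37.7 CPM in B6→B6 and 46.7 to 60.3 CPM in HLA→B6 mice, and in cells without one at 26.7 to 39.8 and 21.5 to 61.8 CPM. The groups were apart in the first, as for 3.92% of the genes tested in alveolar macrophages, and overlapped in the second. The B6→B6 values with such a UMI rest on 1, 3, 2, 18 and 1 Nrp1 UMIs. Of the other 22 genes of the VEGF, semaphorin and Tie families 4 were tested in alveolar macrophages and 1 was called, Plxna1, a semaphorin co-receptor that pairs with neuropilins, at a log2 fold change of 0.97 (SE 0.27, adjusted p = 0.039 by edgeR). None of the 8 hypoxia genes tested was called by edgeR.

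**Figure D3:**
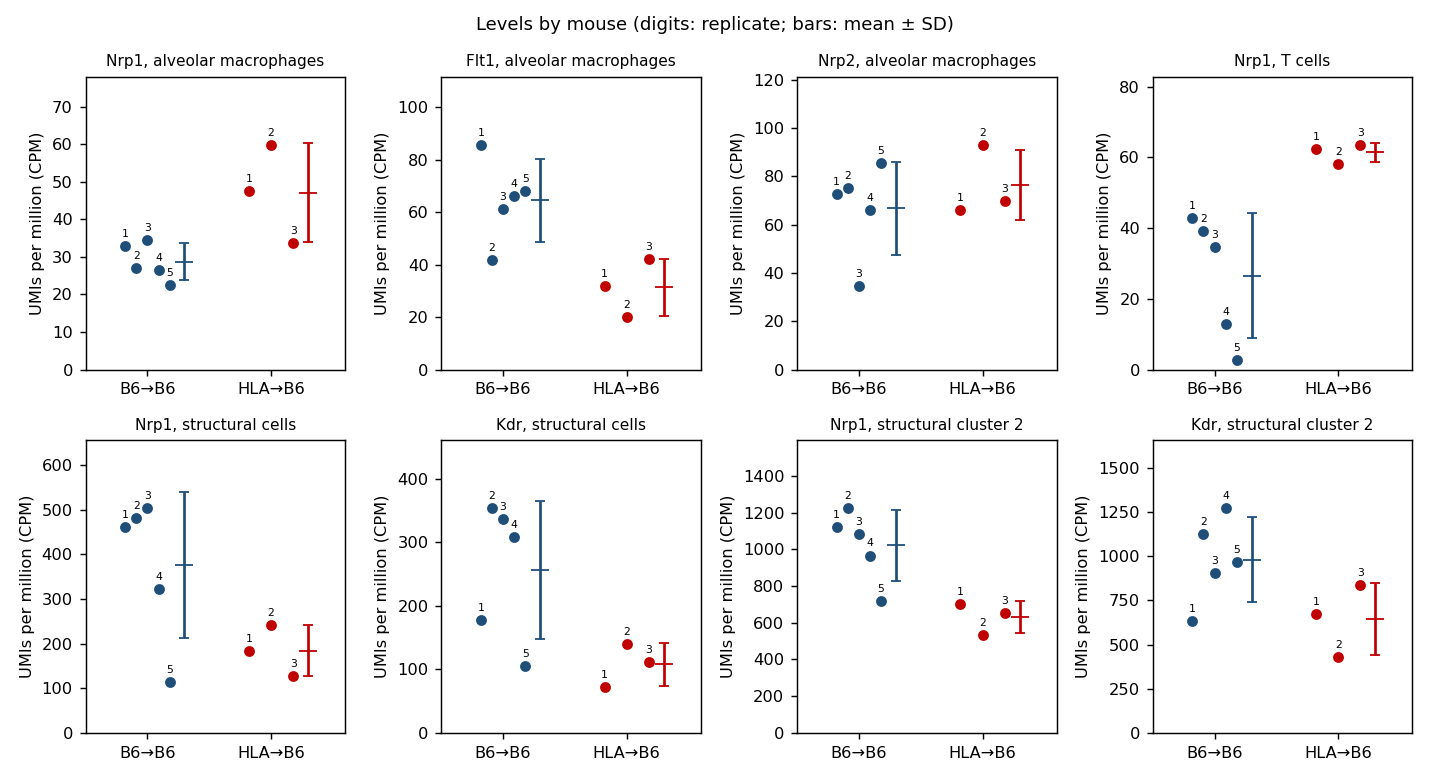
CPM in each mouse for members in alveolar macrophages, structural cells, structural cluster 2 and T cells, with a point and replicate number for each mouse and bars for mean ± SD. In alveolar macrophages 2 of 3 HLA→B6 mice lie above every B6→B6 mouse for Nrp1, and in cluster 2 all 3 HLA→B6 mice lie below for Nrp1.

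In structural cells, 0 of 10 members were called by edgeR, beside 0.604% of 8109 genes, although 4 (Vegfa, Kdr, Nrp1 and Angpt2) had an unadjusted p under 0.05, and DESeq2 called 1 member, Nrp1. Members had a median log2 fold change of 0.05, beside -0.01 over all genes. Hemoglobin genes took 7.18% to 73.7% of the UMIs of structural cells per mouse, most in B6→B6 mouse 5 (73.7%) and HLA→B6 mouse 3 (57.6%). This lowers the CPM of other genes in these mice but is scaled by TMM in the fold changes. Group overlaps, exact permutation tests and differences on log2(CPM + 10) in structural cells rest on CPM without that scaling.

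Nrp1 in structural cells was at 461, 481, 504, 322 and 114 CPM in B6→B6 and 183, 242 and 128 CPM in HLA→B6 mice. In CPM, only B6→B6 mouse 5, where hemoglobin took 73.7% of the UMIs, was below HLA→B6 mice. The other 4 were above all of them. By edgeR it changed by -0.96 (SE 0.21, adjusted p = 0.076). In clusters 0, 1, 2 and 5 alone, where 1.33% of 7222 genes were called, it was -0.98 with an adjusted p of 0.0379 by edgeR, and there every HLA→B6 mouse (226, 288 and 360.3 CPM) was below every B6→B6 mouse (463 to 774 CPM), as for 3.84% of genes.

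Kdr was at 178, 354, 337, 308 and 106 CPM in B6→B6 and 72.7, 139.9 and 111 CPM in HLA→B6 mice. In CPM, the groups overlapped only through B6→B6 mouse 5. Hemoglobin took 73.7% of the UMIs of that mouse and 57.6% of those of HLA→B6 mouse 3, which CPM does not account for. Kdr had a log2 fold change of -1.15 (SE 0.37, adjusted p = 0.286 by edgeR). Within linked and unlinked mice the log2(CPM + 10) difference was -0.94 in both for Kdr and -0.97 and -0.32 for Nrp1.

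The number of cluster 2 cells moved with both receptors. Cluster 2 made up 10.5%, 23.1%, 24.9%, 15.0% and 17.5% of structural cells in B6→B6 and 0.701%, 7.47% and 6.60% in HLA→B6 mice, and held 62.4% to 84.8% of structural Kdr UMIs in B6→B6 against 10.2% to 46.8% in HLA→B6 mice. Every HLA→B6 mouse was below every B6→B6 mouse in both. Among the other structural clusters only the share of cluster 9 was apart in this way. It was 0.538% to 1.86% in B6→B6 and 0.264% to 0.501% in HLA→B6 mice, from 1 to 10 cells per mouse. For the structural cells without cluster 2, where 0.144% of 7614 genes were called, Kdr changed by -0.03 (SE 0.30, adjusted p = 1 by edgeR) and Nrp1 by -0.43 (SE 0.19, adjusted p = 0.862). For Kdr, the 95% interval of the change outside cluster 2 ran from -0.67 to 0.62.

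Angpt2 in structural cells was at 41.9, 27.0, 11.3, 10.00 and 16.3 CPM in B6→B6 and 4.26, 1.11 and 7.08 CPM in HLA→B6 mice, from 84 UMIs. All HLA→B6 mice were below all B6→B6 mice, which was so for 0.493% of genes in this comparison. Its log2 fold change was -2.15 (SE 0.73, adjusted p = 0.334 by edgeR), and the exact permutation p was 0.0357, the smallest that 56 splits of the mice allow. Cluster 9 gave 21 UMIs of Angpt2 in 19 cells of B6→B6 mice and 1 UMI in 13 cells of HLA→B6 mice. Its share of structural cells was also lower in every HLA→B6 mouse, as given above. The part of that share in the Angpt2 difference was not tested. In cluster 0 Angpt2 averaged 34.4 CPM in B6→B6 and 4.64 CPM in HLA→B6 mice (exact permutation p = 0.0714), from 21 UMIs. These means weigh every mouse alike, while B6→B6 mice 2 and 5 had 39 and 18 cells of cluster 0 and HLA→B6 mouse 1 had 1225. Values of mice with few cells rest on few molecules. Pooled over all mice, cluster 0 was at 7.70 CPM for Angpt2.

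Vegfa in structural cells was at 71.2, 27.0, 54.1, 73.7 and 19.0 CPM in B6→B6 and 72.3, 121 and 49.6 CPM in HLA→B6 mice, which overlapped. Its log2 fold change was 0.64 (SE 0.27, adjusted p = 0.549 by edgeR). Tek changed by 0.48 (SE 0.24, adjusted p = 0.652) and Flt1 by 0.37 (SE 0.23, adjusted p = 0.769), also with edgeR. Vegfc was at 10.9 to 88.6 CPM in B6→B6 and 34.2 to 85.1 CPM in HLA→B6 mice (log2 fold change 0.22, SE 0.31), and Nrp2 at 7.70 to 25.1 and 5.90 to 16.6 CPM (-0.29, SE 0.35). Pgf changed by 1.09 (SE 0.74) and Angpt1 by -0.11 (SE 0.52), from 0 to 29 and 0 to 33 UMIs per mouse, and the groups overlapped for these 4 members. Of the other 22 family genes 14 were tested in structural cells and 0 were called by edgeR. Of 9 tested genes that VEGF is known to raise in endothelium 1 was called, Rcan1, an inhibitor of calcineurin, which rose from 16.6 to 52.9 CPM (log2 fold change 1.72, SE 0.30, adjusted p = 0.026 by edgeR).

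In cluster 2 itself, 0 of the 3 members tested (Kdr, Nrp1 and Flt1) were called by edgeR, beside 0.243% of 1643 genes, with 1 at an unadjusted p under 0.05. Nrp1 was at 1121, 1225, 1083, 966 and 718 CPM in B6→B6 and 704, 535 and 651 CPM in HLA→B6 mice. The groups did not overlap, and 5.6% of genes there were lower in every HLA→B6 mouse in this way. Nrp1 changed by -0.71 (SE 0.23, adjusted p = 0.234 by edgeR), and by -1.08 and -0.30 on log2(CPM + 10) among linked and unlinked mice.

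Kdr in cluster 2 was at 632, 1124, 906, 1273 and 968 CPM in B6→B6 and 672, 432 and 837 CPM in HLA→B6 mice, and the groups overlapped (-0.63, SE 0.29, adjusted p = 0.388 by edgeR). Flt1 had a log2 fold change of -0.58 (SE 0.31, adjusted p = 0.475 by edgeR) in cluster 2. The members' median there was -0.63, beside -0.01 over all genes. HLA→B6 mouse 1 and B6→B6 mouse 5 had 14 and 18 cells of cluster 2. The endothelial genes Cldn5 and Cdh5 also had lower means in cluster 2 of HLA→B6 mice (log2 fold changes of -0.58 and -0.66, adjusted p = 0.117 and 0.287 by edgeR).

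In the other structural clusters no member was called by edgeR: 0 of 6 in cluster 0 (0.686% of genes), 0 of 5 in cluster 1 (1.02%), 0 of 2 in cluster 3 (0.317%) and 0 of 3 in cluster 5 (9.02%), with DESeq2 also at 0 in all 4. In cluster 0 the log2 fold changes were 0.39 for Vegfa, -0.01 for Vegfc, 0.27 for Kdr, 0.10 for Flt1, -0.44 for Nrp1 and 0.28 for Tek. In cluster 1 they were -0.46 for Vegfa, -0.60 for Kdr, 0.06 for Flt1, -0.58 for Nrp1 and -0.33 for Tek, and in cluster 5 0.46 for Vegfc, 0.19 for Flt1 and -0.23 for Tek. Nrp1 in cluster 3 was at -0.57 (SE 0.52). At an unadjusted p under 0.05 there was 1, Flt1 in cluster 3. Flt1 there was at 54.7, 124 and 137 CPM in B6→B6 mice 1, 3 and 4 and 299, 477 and 197 CPM in HLA→B6 mice. Each HLA→B6 mouse exceeded the 3 B6→B6 mice, as for 13.6% of genes there, with a log2 fold change of 1.32 (SE 0.42, adjusted p = 0.2 by edgeR; the smallest exact permutation p of this design is 0.1). Endothelial genes were also present in cluster 3, with Cldn5 at 1263, Gpihbp1 at 755 and Pecam1 at 498 CPM pooled, and the summed level of 11 endothelial markers moved with Flt1, from 3718 to 4156 CPM in the B6→B6 mice and 5823 to 6846 CPM in the HLA→B6 mice. The summed level of the fibroblast list there was 2953 to 13689 CPM in B6→B6 and 1124 to 3997 CPM in HLA→B6 mice. It was below the endothelial sum in every HLA→B6 mouse and in B6→B6 mouse 1. The part of these other genes in the Flt1 difference was not tested.

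Pgf in cluster 1 was at 0 in all 5 B6→B6 mice and at 14.4, 167 and 40.1 CPM in HLA→B6 mice, from 4, 24 and 5 UMIs. The 33 UMIs were in 10 cells, and 1 cell of HLA→B6 mouse 2 had 17. B6→B6 mice 1 to 5 held 19, 13, 92, 602 and 17 cells of cluster 1, so a 0 in mice 1, 2 and 5 rests on few cells. In B6→B6 mouse 2, 3 counts equal 202 CPM in this cluster. The pooled HLA→B6 level was 16.9 times the floor of 3 counts over the 5 B6→B6 mice (3.57 CPM). Most cells behind that floor were of B6→B6 mouse 4. The gene did not pass the filter on low counts and was therefore not tested, while its exact permutation p was 0.0357. In cluster 1, 2.98% of the genes tested had every HLA→B6 mouse above every B6→B6 mouse.

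**Figure D4:**
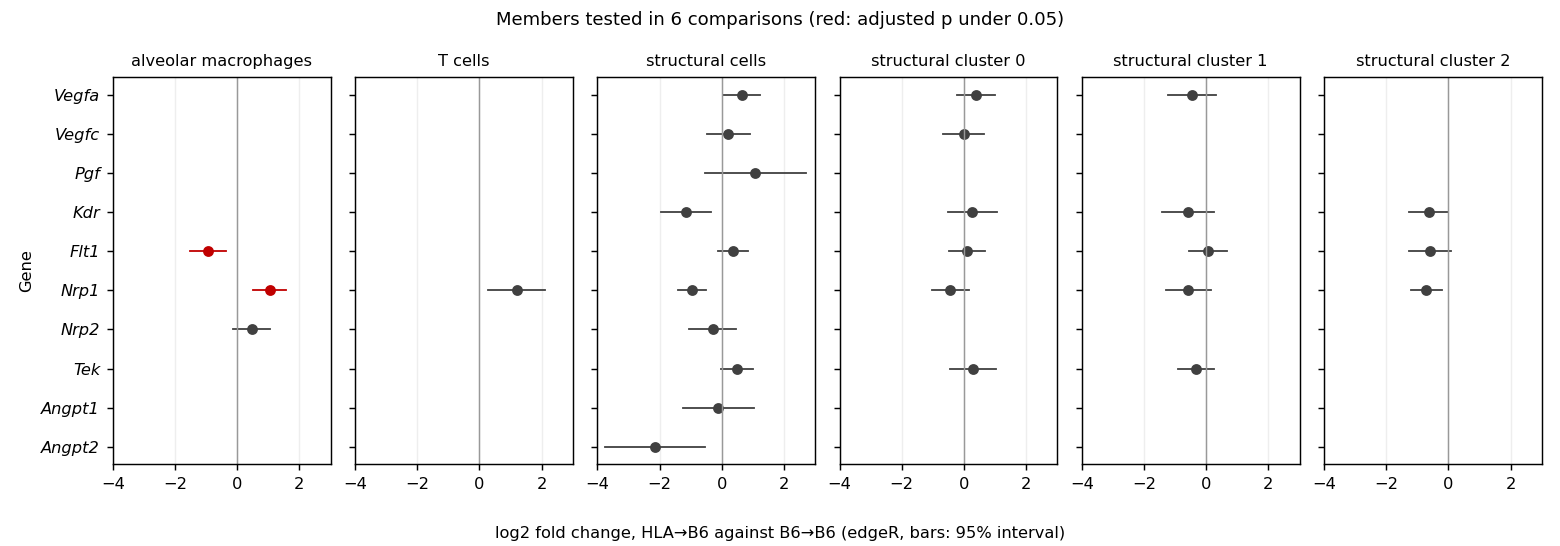
Log2 fold changes of the members, HLA→B6 over B6→B6, by edgeR in 6 populations, with bars for 95% intervals and red for an adjusted p under 0.05. The 2 called members are Nrp1 (1.05) and Flt1 (-0.93) in alveolar macrophages.

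In T cells only Nrp1 passed the filter. It was at 42.8, 39.3, 34.7, 12.9 and 2.68 CPM in B6→B6 and 62.3, 58.2 and 63.6 CPM in HLA→B6 mice. The 2 groups did not overlap, as for 3.96% of genes that were higher there, and B6→B6 mice 4 and 5 were the lowest. With edgeR the change was 1.2 (SE 0.42, adjusted p = 0.471), so it was not called, beside 0.0698% of 7164 genes. Among linked mice the log2(CPM + 10) difference was 0.48 and among unlinked mice 2.10.

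Nrp1 is carried by many regulatory T cells, which the transcription factor Foxp3 marks. Cells with a Foxp3 UMI were compared in the 4 mice with at least 10 of them. They were at 163 ± 62.2 CPM and T cells without a Foxp3 UMI at 39.7 ± 23.3 CPM. The first value rests on 6 and 2 Nrp1 UMIs in B6→B6 mice 3 and 4 and 6 and 5 in HLA→B6 mice 1 and 2. Nrp1 was higher in Foxp3-positive cells in 4 of 4 mice (mean log2 difference 1.88, exact permutation p = 0.125, the smallest possible). Among the mice with fewer such cells, it was also higher in them in B6→B6 mice 1 and 2. B6→B6 mouse 5 and HLA→B6 mouse 3 had 0 Nrp1 UMIs in 5 and 4 Foxp3-positive cells. In T cells with no Foxp3 UMI, 0.0847% of genes were called and 3.88% were higher in every HLA→B6 mouse. There Nrp1 again did not overlap between groups and changed by 1.37 (SE 0.40, adjusted p = 0.315 by edgeR). Foxp3 had 134 UMIs in all T cells, so a cell without one can still express it. The part of regulatory T cells in the Nrp1 difference was not tested. In monocytes 1 member was tested, Flt1, at a log2 fold change of 0.48 (SE 0.63), and 0.023% of genes were called there. In myeloid cells Nrp1 alone was tested, at 0 to 41.0 CPM in B6→B6 and 33.3 to 50.4 CPM in HLA→B6 mice (log2 fold change 0.87, SE 0.56, adjusted p = 0.999 by edgeR), with 0% of genes called.

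The opposite sign of Nrp1 in alveolar macrophages and structural cells was compared on the difference itself, a comparison chosen after these signs were seen and given as a description. The log2 ratio of macrophage to structural CPM (each plus 10) averaged -3.16 (SD 0.718) over the 5 B6→B6 mice and -1.75 (SD 0.0960) over the 3 HLA→B6 mice, a difference of 1.41 (exact permutation p = 0.0357, adjusted 0.107 over the 3 members tested in both). For Flt1 the difference was -1.30 (exact permutation p = 0.179) and for Nrp2 0.31 (exact p = 0.536). Between clusters 0 and 2, 8 members were compared in the same way (Pgf and Angpt1 were not), and exact permutation p ran from 0.0714 for Vegfc to 0.607 for Vegfa.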

How the data were processed

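The authors deposited UMI counts per gene and cell, made with Cell Ranger on mm10 (GRCm38) and clustered with Seurat (versions not given in the sources used here). The study states that cells needed 200 UMIs and genes needed 3 cells to be kept and that SoupX was used against free RNA; whether the deposited counts precede SoupX was not given. Groups came from the labels, and each cell took its mouse, type and cluster from the authors' deposited table. The names of cells of the HLA→B6 grafts carry the numbers 2, 3 and 5 and the table of cells 1, 2 and 3; the table was followed. No columns were left unused (0).

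Counts were summed per mouse and population (at least 10 cells), filtered with filterByExpr (minimum count 10), scaled by TMM and compared with edgeR 4.0.16 in R 4.3.3 (limma 3.58.1, DESeq2 1.42.0). Levels are CPM without TMM. Single values were compared by exact permutation tests over mice, two-sided, with 0.0357 as the smallest p for 5 against 3. Shares were also taken after thinning cells to 500 UMIs. Scrublet (scanpy 1.11.5, Python 3.11.15, expected rate 0.06) marked 305 doublets (1.47%), which stayed in except in an alternative. Numbers 1 to 3 of both groups did not pair the mice. Differences in log2(CPM + 10) used that pseudocount. The methods were tested on simulated data.

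Members were named in every comparison that tested them, and of the lists of related genes those past the threshold with a few others for context. Like genes had at least 100 UMIs. Members and lists were chosen with earlier results of these data known. Alternatives were DESeq2, no TMM, no filter, at least 20 cells, at least 500 UMIs per cell, no doublets, a replicate block, each mouse left out, and, added after the data were seen, no shared barcodes (793 cells left out), linked libraries as a block and cells of 4 selections.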

Additional observations from a re-analysis of the deposited data

Results flagged for a closer look

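In groups of 4 or 5 B6→B6 mice the highest or lowest mouse was compared with the rest for each member (43 groups, with a mark in about 1 in 20 groups by chance), and 3 stood apart. Tek in structural cluster 0 was at 1119 CPM in B6→B6 mouse 5, while the other B6→B6 mice were at 239.8 to 391 CPM. Flt1 in structural cluster 2 was at 125 CPM in B6→B6 mouse 5, while the others were at 187 to 192 CPM. B6→B6 mouse 5 had 18 cells in each of these 2 clusters, and the comparison left counting error out. Angpt2 over the whole graft was at 13.2 CPM in B6→B6 mouse 1, while the others were at 2.76 to 3.13 CPM.

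The group effect on Nrp1 differed between alveolar macrophages and structural cells by 1.41 on the log2 scale (exact permutation p = 0.0357, adjusted 0.107 over 3 members). The comparison was chosen after the opposite signs were seen. Over the 11 such differences tested, it was the only one with an unadjusted p under 0.05.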

How the results depend on the processing

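Of 262 counts of called members recomputed, 251 were within 1.5 times of the reported count. Only alveolar macrophages had a reported count above 0, so most of the 251 were a 0 that stayed 0. In clusters 4 and 7, B cells, leukocytes and NK cells 0 members were tested in the reported fit. Of 740 fold changes 694 kept their direction and side of the threshold, while 12 lost it, 2 gained it and 32 turned. The 12 were all of Nrp1 or Flt1 in alveolar macrophages. In alveolar macrophages the count of called members was 0 to 2 without 1 mouse (0 without B6→B6 mouse 4 or HLA→B6 mouse 2) and 0 without cells that had a monocyte or neutrophil UMI. In structural cells it was 1 with DESeq2 and 1 in clusters 0, 1, 2 and 5 alone, and in cluster 1 it was 1 with no filter on low counts (Pgf). With at least 20 cells per mouse, 6 of the 10 members had the same highest population. The cause of these changes was not tested.

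The replicate number did not pair the mice. With it as a block, 1 of 14 counts of called members changed, that of alveolar macrophages, to 0 (Nrp1 0.83, adjusted p = 0.186, and Flt1 -0.82, adjusted p = 0.134, by edgeR). Under the block the sign also turned for Flt1 in cluster 0 (-0.022) and cluster 1 (-0.055), Vegfc in structural cells (-0.054), Vegfc in whole graft sums (-0.085) and Angpt1 in structural cells (0.29). None of these members was called in the reported comparison.

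Other small fold changes turned as well. Vegfc in cluster 0 was at 0.086 with no filter, Flt1 in cluster 1 at -0.033 with library sizes alone and -0.17 without shared barcodes, Vegfc in structural cells at -0.10 without cluster 2, Angpt1 in structural cells at 0.21 without shared barcodes, and Angpt1 in whole grafts at -0.012 with library sizes alone and -0.079 with the linked libraries as a block. Over the fits without 1 mouse, values in cluster 0 ran from -0.16 to 0.15 for Vegfc, -0.10 to 0.68 for Kdr, -0.059 to 0.23 for Flt1 and -0.082 to 0.51 for Tek. Flt1 ran from -0.10 to 0.22 in cluster 1 and -0.011 to 0.39 in cluster 5. The range for Pgf in whole graft sums was -0.038 to 0.53, and there it was -0.075 to 0.74 for Vegfc, -0.14 to 0.56 for Flt1, -0.26 to 0.78 for Nrp2 and -0.12 to 0.59 for Angpt1. The difference of the effect on Vegfa between clusters 0 and 2 ran from -1.37 to 0.18.

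Counts of genes called moved more than those of members. Without 1 mouse, alveolar macrophages had 180 to 829 called genes (712 reported) and structural cells 10 to 71 (49), and under the other alternatives 283 to 1253 and 10 to 130. For T cells (5 reported) these ranges were 0 to 24 and 5 to 61. Cluster 0 (25 reported) had 2 to 52 and 12 to 115, cluster 1 (24) 14 to 53 and 1 to 89, and cluster 2 (4) 2 to 14 and 4 to 59. Cluster 3 (4 reported) had 0 to 27 and 0 to 50, and cluster 5 (65) 26 to 69 and 20 to 70. Monocytes (1 reported) reached 98 and myeloid cells (0 reported) 153 under an alternative. Members with few UMIs (Pgf, Angpt1 and Angpt2) passed the filter in few populations, which limits what could be tested.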
